A study of Mus musculus with 9 samples.

Results

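The volume-regulated anion channel of vertebrate cells is built from leucine-rich repeat proteins of the Lrrc8 family, and the mRNAs of its 5 subunits were followed here together with those of Clcn3 and Ano6. The 7 genes (Lrrc8a, Lrrc8b, Lrrc8c, Lrrc8d, Lrrc8e, Clcn3 and Ano6) were chosen by name and are 7 of the 35275 genes in the deposited count table. Wild type mouse embryonic fibroblasts (MEFs), connective tissue cells grown from mouse embryos, were kept without added osmolyte (iso-osmolar controls) or exposed for 3 h to low intensity (500 mOsm) or high intensity (600 mOsm) hyperosmotic stress. Sucrose was the osmolyte in both, at 200 mM for 500 mOsm and at 300 mM for 600 mOsm, and no group carried a genetic change. Poly-A mRNA was sequenced as 3 libraries per treatment, 9 in all. The sources used here do not say whether the 3 libraries of a treatment came from separate cultures, so p-values measure only the spread between these libraries, which may be technical.

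Cells that swell open the Lrrc8 channel, lose chloride and small organic osmolytes through it, and shrink back, a process called regulatory volume decrease. Lrrc8a encodes the subunit that every working channel needs at the plasma membrane, while Lrrc8b to Lrrc8e encode partners that set which solutes pass. Hyperosmotic medium does the opposite of swelling: it draws water out, and cells then take up ions and accumulate osmolytes. Clcn3 encodes an endosomal chloride/proton exchanger that was long discussed as a candidate for the swelling-activated current, and Ano6 (also called TMEM16F) encodes a calcium-activated lipid scramblase that also conducts ions.

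Each library held between 21716042 and 26740832 reads counted on genes, and the level was expressed as CPM (counts scaled by TMM to a common library total). The detection floor of 3 counts was 0.112 to 0.138 CPM, which covers counting error only. All 7 genes were among the 13082 that passed the filter on low counts. The label of fibroblast was checked against 10 markers, of which 8 exceeded 1 CPM in every library, with Col1a1, a collagen chain, at 8364 CPM or more. Fap was at 0 counts in every library and Dcn in every iso-osmolar library. The summed level of 4 endothelial markers was 0.778 to 0.900 CPM in iso-osmolar controls, 11.95 to 13.4 CPM at 500 mOsm, where Pecam1 made up most of it, and 2.13 to 3.18 CPM at 600 mOsm. Of 5 epithelial markers the sum was 0.0819 to 0.410 CPM in iso-osmolar controls, 3.85 to 4.80 CPM at 500 mOsm and 0.309 to 0.544 CPM at 600 mOsm, and Krt5 was at 0 throughout. Leukocyte markers (3 of 4 found in the table) summed to between 11.3 and 17.1 CPM. Most of that was Csf1r (9.40 to 15.3 CPM), with Ptprc at 0.264 CPM or less. Muscle markers summed to at most 1.13 CPM and neural markers, nearly all Nes, to between 207 and 295 CPM. The part of these marker levels in the results that follow was not tested. In bulk RNA of this kind, fewer cells of a type and less RNA per cell cannot be told apart.

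The table places the genes on the mouse build mm10. Lrrc8b (chr5:105415775-105486189), Lrrc8c (chr5:105519388-105613018) and Lrrc8d (chr5:105699969-105832436) lie next to each other in that order on the plus strand of chromosome 5. Lrrc8a (chr2:30237715-30263790, plus strand), Lrrc8e (chr8:4226827-4237470, plus strand), Clcn3 (chr8:60910389-60983300, minus strand) and Ano6 (chr15:95790843-95975464, plus strand) stand apart from that cluster, and all 7 are annotated as protein-coding. Because the most contrasting patterns across treatments belonged to Lrrc8a, Lrrc8c and Lrrc8e, the 250 bases upstream of their RefSeq starts (GRCm38.p6, the same sequence as mm10) are shown here. Capitals mark the hexamer GGGCGG or its reverse complement CCGCCC, a GC box that Sp1-type factors can bind.
Lrrc8a, chr2:30237519-30237768, plus strand: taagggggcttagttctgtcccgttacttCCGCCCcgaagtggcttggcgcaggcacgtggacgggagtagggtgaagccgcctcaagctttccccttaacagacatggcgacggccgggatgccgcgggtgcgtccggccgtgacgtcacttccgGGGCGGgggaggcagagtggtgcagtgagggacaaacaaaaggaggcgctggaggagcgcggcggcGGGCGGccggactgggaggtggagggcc
Lrrc8c, chr5:105519221-105519470, plus strand: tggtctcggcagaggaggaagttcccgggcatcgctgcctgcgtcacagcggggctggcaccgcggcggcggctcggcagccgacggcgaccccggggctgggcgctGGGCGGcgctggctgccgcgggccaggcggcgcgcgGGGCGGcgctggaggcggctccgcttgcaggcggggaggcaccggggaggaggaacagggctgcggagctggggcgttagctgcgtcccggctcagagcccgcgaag
Lrrc8e, chr8:4226577-4226826, plus strand: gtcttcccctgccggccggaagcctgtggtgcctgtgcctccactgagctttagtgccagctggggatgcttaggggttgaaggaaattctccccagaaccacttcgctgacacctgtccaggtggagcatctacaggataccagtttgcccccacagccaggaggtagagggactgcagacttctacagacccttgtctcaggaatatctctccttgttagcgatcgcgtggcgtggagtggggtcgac
The Lrrc8a stretch holds 3 GC boxes and that of Lrrc8c 2, while the Lrrc8e stretch holds none. Across the 300-base windows that add the first 50 transcribed bases, GC content was 70.0% for Lrrc8a, 78% for Lrrc8c and 60.0% for Lrrc8e, against a median of 52.7% over 32851 promoter windows, and the Lrrc8e window had 14 CG pairs where that of Lrrc8c had 44. On both strands, the GC box was found in 8 of the 9 windows of the 7 genes and in 35.7% of all windows. The Lrrc8e window held 1, which does not lie within the 250 bases shown, and the window without a box belongs to a start of Clcn3. The tonicity-responsive element, the binding site of the osmotic stress factor Nfat5, was found in 0 of the 9 windows and in 5.0% of all windows, and its core TGGAAA, which is part of that element, in 0 of 9 and in 21.4%. The NF-kB consensus was found in 2 of the 9 windows, those of Lrrc8b and Lrrc8c, and in 8.5% of all windows. The GC box and the NF-kB consensus were added after the data were seen, and a match or its lack describes these letters only.

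At low intensity stress, 3 of the 7 genes fell against the iso-osmolar libraries (Lrrc8a, Lrrc8c and Lrrc8e) and none rose. At high intensity stress 4 fell (Lrrc8a, Lrrc8c, Lrrc8d and, by a small margin, Ano6) and 1 rose (Lrrc8e). Between the intensities, Lrrc8a and Lrrc8e were higher and Lrrc8c and Lrrc8d lower at 600 than at 500 mOsm. The call was an adjusted p under 0.05 in edgeR's quasi-likelihood test over all 9 libraries and 13082 genes. By the same rule, 14.8% of all genes tested were lower and 13.2% higher at 500 mOsm than in iso-osmolar controls, 20.0% lower and 15.1% higher at 600 mOsm, and 17.2% lower and 11.9% higher at 600 than at 500 mOsm. The libraries of the compared groups did not overlap for 3 of the 7 genes at 500 mOsm against iso-osmolar (40.9% of all genes), for 5 at 600 mOsm against iso-osmolar (48.4%) and for 4 at 600 against 500 mOsm (41.5%). The median log2 fold change of the 7 genes in these comparisons was -0.11, -0.17 and -0.05, and that of all genes tested was 0.01 in each. The comparisons share libraries, so their values stand side by side and not as repeats of each other.

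**Figure D1:**
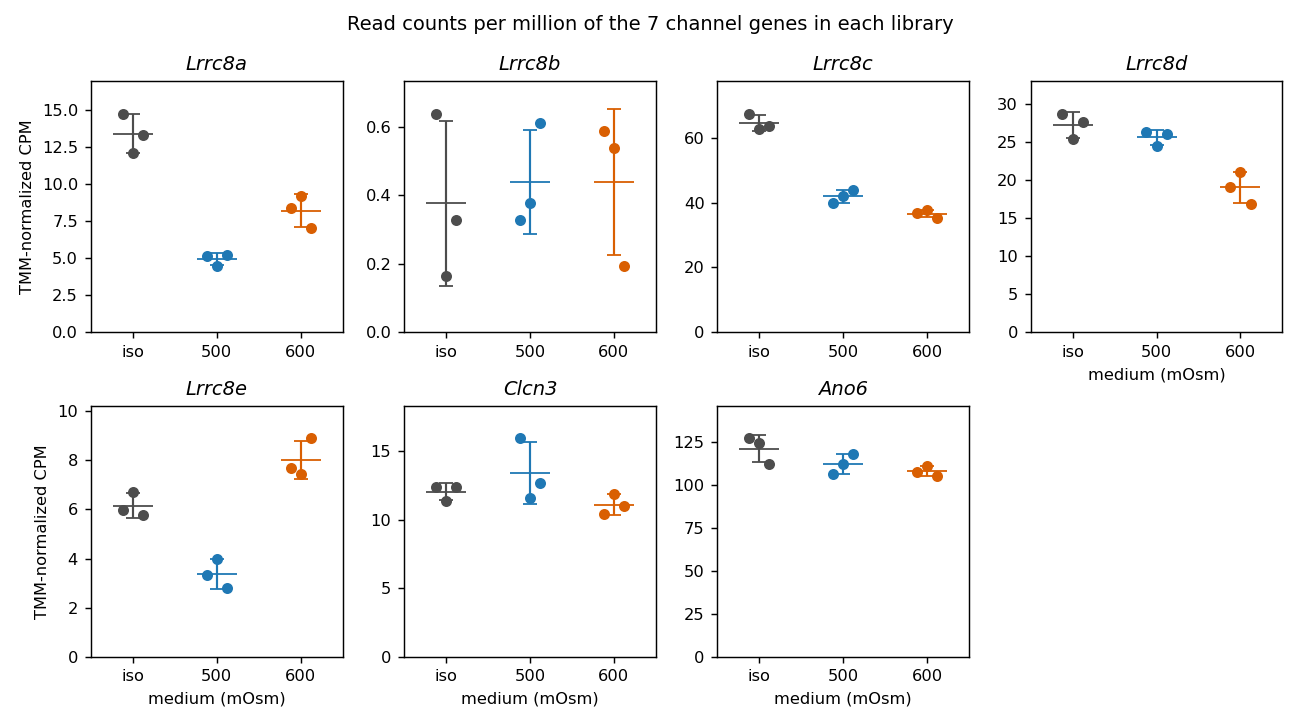
TMM-normalized CPM (y axes, linear from 0, one scale per gene) of the 7 genes in iso-osmolar controls and at 500 and 600 mOsm (x axis). Points are single libraries, horizontal bars the mean of 3 libraries and error bars the SD. Lrrc8a and Lrrc8e were lowest at 500 mOsm, Lrrc8c was lower at both intensities, and Lrrc8d was lower at 600 mOsm only.

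Lrrc8a, the obligatory subunit, was measured at 14.8, 12.1 and 13.3 CPM in the 3 iso-osmolar libraries. It was at 5.17, 4.49 and 5.22 CPM at 500 mOsm and at 8.37, 9.22 and 7.04 CPM at 600 mOsm. The 3 groups did not overlap: iso-osmolar libraries were highest, 500 mOsm libraries lowest, and 600 mOsm libraries stood between. The mean at 500 mOsm was 37.0% of the iso-osmolar mean (log2 fold change -1.43, SE 0.125, adjusted p = 2.52e-06), and 195 of the genes tested had a lower log2 fold change. At 600 mOsm the mean was 61.3% of the iso-osmolar mean (log2 fold change -0.71, SE 0.120, adjusted p = 0.000648). The level at 600 mOsm exceeded that at 500 mOsm by 1.65-fold (log2 fold change 0.72, 95% confidence interval 0.44 to 1.01, adjusted p = 0.00106). Lower at both intensities and higher at 600 than at 500 mOsm was a set of calls met by 1.67% of all genes tested.

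Lrrc8e, a subunit that with Lrrc8a forms channels able to pass cyclic dinucleotides such as cGAMP, also fell at low intensity. Its libraries read 5.97, 6.72 and 5.77 CPM in iso-osmolar controls and 3.32, 3.996 and 2.78 CPM at 500 mOsm. They read 7.70, 7.43 and 8.89 CPM at 600 mOsm. Every 500 mOsm library was below every iso-osmolar library, and every 600 mOsm library was above them. The log2 fold change was -0.87 at 500 mOsm (SE 0.146, adjusted p = 0.000593) and 1.25 at 600 against 500 mOsm (SE 0.143, adjusted p = 3.23e-05), a 2.38-fold difference that 139 of the genes tested exceeded. The rise at 600 mOsm over iso-osmolar controls was 1.30-fold (log2 fold change 0.38, 95% confidence interval 0.09 to 0.68, adjusted p = 0.0437). That rise lost its call without iso-osmolar replicate 1 (adjusted p = 0.112), iso-osmolar replicate 3 (0.128), 500 mOsm replicate 1 (0.0528), 600 mOsm replicate 1 (0.076) or 600 mOsm replicate 3 (0.167). It also lost it under DESeq2 (adjusted p = 0.0857), and its log2 fold change was above 0 in all 21 alternatives, between 0.23 and 0.45. Lower at 500 and higher at 600 mOsm than in iso-osmolar controls was met by 18 genes, 0.138% of those tested. Lower at 500 mOsm than in iso-osmolar controls and higher at 600 than at 500 mOsm, which holds for Lrrc8a and Lrrc8e, was met by 5.32%.

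Lrrc8c, a partner subunit of Lrrc8a, was lower at both intensities. Its libraries held 67.4, 62.8 and 63.6 CPM in iso-osmolar controls, 39.97, 42.0 and 43.9 CPM at 500 mOsm and 36.9, 37.7 and 35.3 CPM at 600 mOsm. All 6 stressed libraries were below the 3 iso-osmolar ones, and the 600 mOsm libraries were all below the 500 mOsm libraries. The level fell to 65.0% of the iso-osmolar mean at 500 mOsm (log2 fold change -0.62, SE 0.0592, adjusted p = 5.24e-06) and to 56.7% at 600 mOsm (log2 fold change -0.82, SE 0.0598, adjusted p = 5.92e-07). Falls at both intensities, found for Lrrc8a and Lrrc8c, were found for 9.12% of all genes tested. The step between the intensities was small (log2 fold change -0.20, 95% confidence interval -0.33 to -0.07, adjusted p = 0.0268). It lost its call without 500 mOsm replicate 2 (adjusted p = 0.0741), 500 mOsm replicate 3 (0.0887), 600 mOsm replicate 1 (0.0694) or 600 mOsm replicate 3 (0.0995), and it was kept in 9 of 21 alternatives. The losses also included no filter on low counts (0.11), a fit of the 2 groups compared (0.0604) and log2 FPKM with 1 added (0.0698), and with a GC content and length correction (loess, per library) its log2 fold change was 0.02 (adjusted p = 0.868).

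Lrrc8d, whose channels pass uncharged osmolytes and the drugs blasticidin S and cisplatin, fell at high intensity stress. Its libraries held 28.7, 25.4 and 27.6 CPM in iso-osmolar controls, 26.3, 24.5 and 26.01 CPM at 500 mOsm and 19.1, 21.04 and 16.9 CPM at 600 mOsm. The iso-osmolar and 500 mOsm libraries overlapped, and the 600 mOsm libraries were below both. Against iso-osmolar controls the log2 fold change was -0.52 at 600 mOsm (SE 0.0880, adjusted p = 0.000654) and -0.09 at 500 mOsm (95% confidence interval -0.28 to 0.10, adjusted p = 0.5). The difference between the intensities was itself called (log2 fold change -0.43, SE 0.0879, adjusted p = 0.00274). It kept its call in 20 of 21 alternatives. The call was lost when the GC content and length correction was combined with replicate number in the fit (-0.21, adjusted p = 0.0648).

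Lrrc8b was close to the detection limit. It had 14, 4 and 8 counts in the iso-osmolar libraries, 8, 10 and 16 at 500 mOsm and 14, 12 and 5 at 600 mOsm. The groups overlapped throughout and no difference was detectable at this depth. The 95% confidence interval of its log2 fold change was -0.87 to 1.38 for 500 mOsm, and -0.92 to 1.37 for 600 mOsm, against iso-osmolar controls.

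Clcn3 did not pass the test in any comparison. Its libraries held 12.4, 11.4 and 12.4 CPM in iso-osmolar controls, 15.9, 11.6 and 12.7 CPM at 500 mOsm and 10.4, 11.9 and 11.0 CPM at 600 mOsm, with replicate 1 at 500 mOsm the highest of all. The log2 fold change was 0.15 at 500 mOsm (95% confidence interval -0.10 to 0.40, adjusted p = 0.389), -0.12 at 600 mOsm (-0.38 to 0.14, adjusted p = 0.473) and -0.27 at 600 against 500 mOsm (-0.52 to -0.01, adjusted p = 0.107). Without 500 mOsm replicate 2, the last of these was called at a log2 fold change of -0.36 (adjusted p = 0.0375). Over the 21 alternatives that log2 fold change ranged from -0.36 to -0.07, and in 20 of them it remained uncalled.

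Ano6 was, per deposited gene length, the most abundant of the 7 genes. Its libraries held 127, 124 and 112 CPM in iso-osmolar controls, 106, 112 and 118 CPM at 500 mOsm and 108, 111 and 105 CPM at 600 mOsm. The 600 mOsm libraries were all below the iso-osmolar ones, and the 500 mOsm libraries overlapped with both. The fall at 600 mOsm was to 89.1% of the iso-osmolar mean (log2 fold change -0.17, SE 0.0587, adjusted p = 0.0429). The log2 fold change was -0.11 at 500 mOsm (adjusted p = 0.186) and -0.05 at 600 against 500 mOsm (adjusted p = 0.53). The call at 600 mOsm was lost without iso-osmolar replicate 1 (adjusted p = 0.154), iso-osmolar replicate 2 (0.122), 500 mOsm replicate 2 (0.0555), 600 mOsm replicate 1 (0.107) or 600 mOsm replicate 3 (0.124), and under DESeq2 (0.0623). With the GC content and length correction, the log2 fold change was -0.06 at 600 mOsm (adjusted p = 0.437) and -0.20 at 500 mOsm, where Ano6 was then called (adjusted p = 0.00903).

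**Figure D2:**
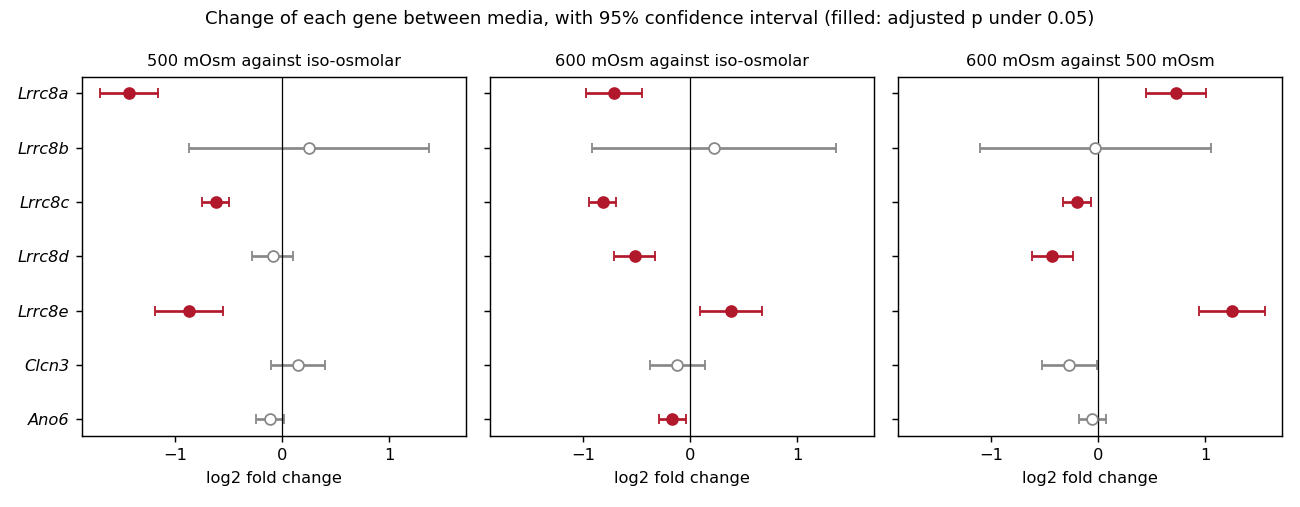
Log2 fold change (x axes, same scale) of the 7 genes in the 3 comparisons from edgeR, with 95% confidence intervals. Filled points passed an adjusted p under 0.05, open points did not. Lrrc8a and Lrrc8e lie on the left at 500 mOsm against iso-osmolar (-1.43 and -0.87) and on the right at 600 against 500 mOsm (0.72 and 1.25), and the interval of Lrrc8b spans 0 in every panel.

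Levels of different genes were compared per length, as FPKM (counts scaled to gene length and library total). In iso-osmolar controls the order of mean FPKM was Ano6 (21.6 ± 1.36, SD, n = 3), Lrrc8c (9.30 ± 0.428), Lrrc8d (4.77 ± 0.345), Lrrc8a (3.13 ± 0.335), Lrrc8e (1.59 ± 0.113), Clcn3 (1.48 ± 0.0874) and Lrrc8b (0.134 ± 0.0861). Lrrc8e and Clcn3 did not differ beyond their spread, and every other pair of neighbours was separated. At 500 mOsm Clcn3 (1.64 ± 0.283) stood above Lrrc8a (1.16 ± 0.106) and Lrrc8e (0.869 ± 0.148), and no neighbours overlapped. At 600 mOsm Lrrc8e (2.04 ± 0.163) and Lrrc8a (1.90 ± 0.288) overlapped, with both above Clcn3 (1.35 ± 0.109). On these lengths Ano6, Lrrc8c and Lrrc8d held the top 3 places in every treatment, and Lrrc8b was last. That order depends on the lengths taken for Lrrc8a, Lrrc8d and Ano6.

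The level of Lrrc8a carries a limit that comes from shared bases. Of its 4308 annotated exon bases (GENCODE M21), 2853, or 66.2%, also belong to Gm28035, a same-strand gene that joins exons of Lrrc8a with those of its neighbour Phyhd1 and is listed at 0 in all 9 libraries. How the counting tool treated reads on shared bases is not given in the sources used here. If such reads were dropped, the Lrrc8a counts come from the 1448 bases of its table length that are not shared, and its FPKM on that length was 9.31 ± 0.996 (SD, n = 3) in iso-osmolar controls, 3.43 ± 0.315 at 500 mOsm and 5.63 ± 0.856 at 600 mOsm. Lrrc8a would then overlap with Lrrc8c in iso-osmolar controls and at 600 mOsm, where both would stand above Lrrc8d, and at 500 mOsm it would follow Lrrc8c and Lrrc8d and stand above Clcn3. The fold changes of Lrrc8a rest on the same bases in every library and do not depend on that length. The deposited lengths of Lrrc8d (5736 bases) and Ano6 (5640) are also shorter than their annotated exon bases, 12573 and 12269. If reads were counted on all of these bases, the FPKM of both genes per base would be lower. The order of levels and the shares of the sum were not computed on those longer lengths. Antisense neighbours overlap 91 exon bases of Lrrc8a, 218 of Lrrc8d and up to 214 of Ano6, and if the counting did not use strand, their reads cannot be told apart. No 2 Lrrc8 genes share a stretch of 100 bases or more at 95% identity, while Clcn3 and Lrrc8e share 101 bases. Such stretches are shared with 159 other genes by Clcn3, 66 by Lrrc8e, 31 by Lrrc8d, 18 by Ano6 and 1 by Lrrc8a, and reads within them are uncertain.

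The summed FPKM of the 5 Lrrc8 genes was 20.1, 17.9 and 18.8 in the iso-osmolar libraries, 12.5, 12.4 and 13.1 at 500 mOsm and 12.6, 13.5 and 11.7 at 600 mOsm. The sum was thus lower at both intensities with no overlap, and the 2 intensities overlapped each other, while the make-up of the sum differed between them. With Lrrc8a per full length, Lrrc8c held the largest share of the sum in every treatment: 49.2% ± 0.657 (SD, n = 3) in iso-osmolar controls, 47.5% ± 1.42 at 500 mOsm and 41.4% ± 0.803 at 600 mOsm. The share of Lrrc8a was 16.5% ± 0.825, then 9.11% ± 0.674 and 15.0% ± 1.25, so that only at 500 mOsm was it apart from the iso-osmolar range. The share of Lrrc8d was 25.2% ± 0.654, then 35.3% ± 1.31 and 26.1% ± 1.499, highest at 500 mOsm, where its own level overlapped with that in iso-osmolar controls. The share of Lrrc8e was 8.45% ± 1.01, then 6.88% ± 1.36 and 16.4% ± 2.46, and each 600 mOsm library (15.6%, 14.4% and 19.1%) was above all others. Lrrc8b held 1.66% or less in every library. These shares are descriptions without a test. They rest on the lengths taken, also that of Lrrc8d, and they change when the shorter length of Lrrc8a is used. Lrrc8a then held 37.0%, 22.9% and 34.4% and Lrrc8c 37.1%, 40.3% and 32.0%, so that Lrrc8c no longer held the largest mean share at 600 mOsm. The ratio of Lrrc8e to Lrrc8a FPKM was 0.514 ± 0.0882 in iso-osmolar controls, 0.764 ± 0.203 at 500 mOsm and 1.11 ± 0.264 at 600 mOsm. The ratios of the iso-osmolar libraries (0.448 to 0.614) and of the 600 mOsm libraries (0.894 to 1.40) did not overlap, and those at 500 mOsm (0.591 to 0.988) overlapped with both. On the shorter Lrrc8a length the ratios were 0.173, 0.257 and 0.372, with the same overlaps and with Lrrc8e below Lrrc8a in every library.

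**Figure D3:**
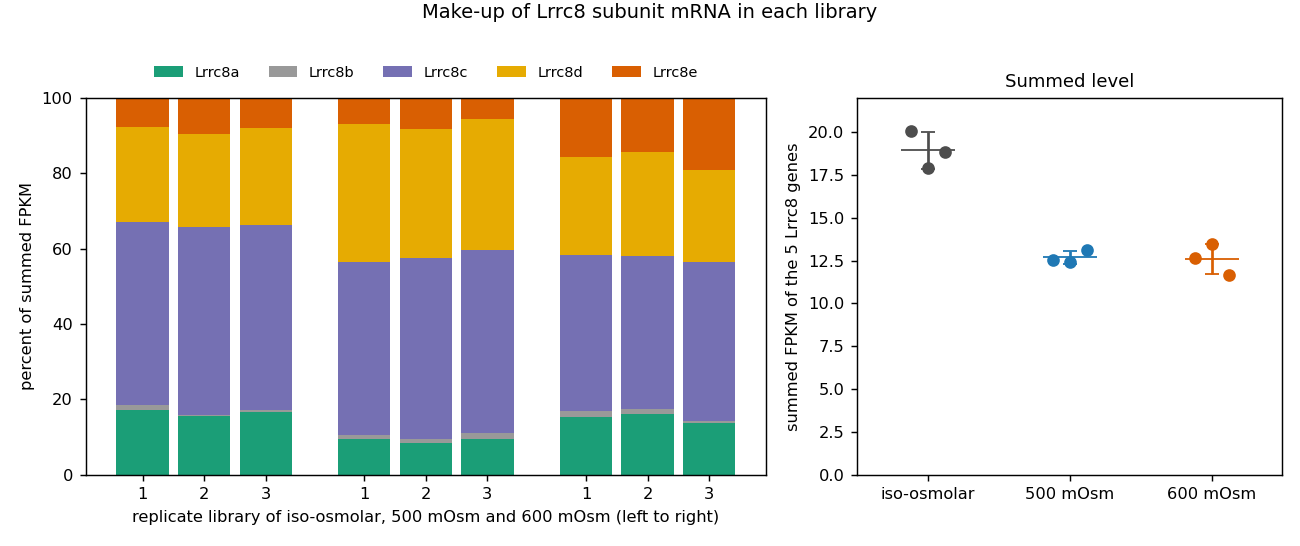
Left, percent of the summed FPKM of the 5 Lrrc8 genes (y axis) held by each gene in each library, stacked to 100. Right, the summed FPKM itself, with points for libraries, bars for the mean of 3 libraries and error bars for the SD. Lrrc8d takes its largest share at 500 mOsm (35.3%) and Lrrc8e at 600 mOsm (16.4%), and the sum is 18.9 in iso-osmolar controls against 12.7 and 12.6 under stress.

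The wider set of genes around these channels, 56 in 7 lists by function, was read in the same fit, and 38 of them passed the filter on low counts. Of these, 7 were higher and 8 lower at 500 mOsm than in iso-osmolar controls, 6 higher and 9 lower at 600 mOsm, and 4 higher and 5 lower at 600 than at 500 mOsm. As shares of the 38 these were 18.4% higher and 21.1% lower, then 15.8% and 23.7%, then 10.5% and 13.2%, beside 13.2% and 14.8%, 15.1% and 20.0%, and 11.9% and 17.2% of all genes tested. The counts of the single lists, of at most 9 tested genes each, stand against the same shares of all genes. The median log2 fold changes of the 38 were 0.03, -0.06 and -0.06, beside 0.01 over all genes tested in each comparison. Of the 36 called values that the naming rule picked from these lists, 19 kept their call in every alternative. The least stable were Clcn7 between the intensities (kept in 5 of 21 alternatives), Ano10 (6 of 21), Ostm1 (10 of 21) and Plscr4, Xkr8 between the intensities and Slc12a4 (11 of 21 each), with Ano7 at 500 mOsm kept in 11 of 19.

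Among the other ClC proteins and their accessory subunits (7 of 10 tested), 1 was lower under low intensity stress, and under high intensity stress 2 were higher and 2 lower, against iso-osmolar controls. Over all genes tested the shares in the same order were 14.8%, and 15.1% and 20.0%. Clcn6, a late endosomal exchanger, fell at both intensities (log2 fold change -0.45, adjusted p = 0.0057, and -0.57, adjusted p = 0.00131). Clcn5, an endosomal exchanger related to Clcn3, fell at 600 mOsm (log2 fold change -0.38, adjusted p = 0.000855) and was lower there than at 500 mOsm (-0.31, adjusted p = 0.0034), a difference that was -0.06 with the GC content and length correction (adjusted p = 0.421). The lysosomal exchanger Clcn7 (log2 fold change 0.24, adjusted p = 0.0108) and its subunit Ostm1 (0.23, adjusted p = 0.0323) both rose at 600 mOsm against iso-osmolar controls. Clcn7 was also higher at 600 than at 500 mOsm (0.18, adjusted p = 0.0466). In that comparison 1 ClC gene was higher and 1 lower, beside 11.9% and 17.2% of all genes tested.

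Among the other anoctamins, the family of Ano6, 4 of 9 passed the filter. Ano1, a calcium-activated chloride channel, fell from 6.27 ± 0.725 CPM in iso-osmolar controls to 3.12 ± 0.212 CPM at 500 mOsm and 3.30 ± 0.352 CPM at 600 mOsm (SD, n = 3; log2 fold changes -1.01, adjusted p = 9.35e-05, and -0.93, adjusted p = 0.000206). Ano10 was slightly higher at 600 mOsm (log2 fold change 0.19, adjusted p = 0.0453). Ano7 was called higher at both intensities on very few reads, with 0 to 2 counts per iso-osmolar library, 4 to 7 at 500 mOsm and 10 to 12 at 600 mOsm. Ano7 passed the filter on low counts only through the 600 mOsm libraries, where it was highest. Its higher level there was thus part of why it was tested at all. Its call at 500 mOsm (adjusted p = 0.03) was lost under DESeq2 (0.103) and without iso-osmolar replicate 1 (0.0726), iso-osmolar replicate 3 (0.102), 500 mOsm replicate 1 (0.0881) or 500 mOsm replicate 2 (0.0685). None of the 4 was called between the intensities, beside 11.9% higher and 17.2% lower over all genes tested.

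Of 10 other anion channels linked to volume or acid, 7 passed the filter. Under low intensity stress 3 of them were higher, and under high intensity stress 2, with none lower, beside 13.2% and 15.1% of all genes tested that were higher. Best2, a bestrophin chloride channel, had 1 to 4 counts per iso-osmolar library, 113 to 129 at 500 mOsm and 10 to 19 at 600 mOsm. Its 600 mOsm level was below that at 500 mOsm (log2 fold change -2.87, SE 0.234, adjusted p = 1.84e-06), and both were above iso-osmolar controls (adjusted p = 1.04e-07 at 500 mOsm and 0.00131 at 600 mOsm). Ttyh2, of the tweety family, was higher at both intensities (log2 fold change 0.22, adjusted p = 0.00655, and 0.35, adjusted p = 0.00025), but the first was 0.05 with the GC content and length correction (adjusted p = 0.513). Best2 thus peaked at 500 mOsm, and it passed the filter on low counts only through stressed libraries. Such a peak was also found outside these lists. The endothelial marker Pecam1 and the epithelial marker Cdh1 were called higher at 500 mOsm than in iso-osmolar controls. Both were called lower at 600 than at 500 mOsm. Like Best2, both passed the filter on low counts only through stressed libraries. Their higher level in those libraries was thus part of why they were tested. A link between the Best2 peak and the falls of Lrrc8a and Lrrc8e was not tested. Of 3 pannexins, large-pore channels distantly related to the Lrrc8 proteins, 1 was tested and it was not called in any comparison.

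Among the chloride intracellular channel proteins, 3 of 5 were tested. Clic4 was lower at 500 mOsm (log2 fold change -0.18, adjusted p = 0.0183) and 600 mOsm (-0.29, adjusted p = 0.000878) than in iso-osmolar controls, and Clic1 was higher at 600 than at 500 mOsm (0.16, adjusted p = 0.0296). Of 11 lipid scramblases and flippases, which share with Ano6 the handling of membrane lipids between leaflets, 9 were tested. At 500 mOsm 2 were lower and 1 higher than in iso-osmolar controls, at 600 mOsm 3 were lower, and 1 was higher and 1 lower between the intensities. Over all genes tested the shares in the same order were 14.8% and 13.2%, 20.0%, and 11.9% and 17.2%. The scramblase family member Plscr1 fell at both intensities (log2 fold change -0.63 in each, adjusted p = 2.44e-06 and 3.34e-06). Xkr8, a scramblase that caspases activate in dying cells, fell at 500 mOsm (-0.77, adjusted p = 0.000444) and at 600 mOsm (-0.39, adjusted p = 0.0284). It was higher at 600 than at 500 mOsm (0.39, adjusted p = 0.0374). Plscr4 was higher at 500 mOsm (0.84, adjusted p = 0.036), on 11 to 15 counts per iso-osmolar library and 20 to 31 at 500 mOsm. That call was lost under DESeq2 (adjusted p = 0.146). The flippase Atp11a was lower at 600 mOsm than in iso-osmolar controls (-0.29, adjusted p = 0.000262) and than at 500 mOsm (-0.40, adjusted p = 1.85e-05), the latter being -0.11 with the GC content and length correction (adjusted p = 0.0819).

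The K-Cl cotransporters and potassium channels that work beside the Lrrc8 channel in volume decrease made up a list of 8, of which 7 were tested. At 500 mOsm 2 were higher and 3 lower than in iso-osmolar controls, at 600 mOsm 2 were lower, and between the intensities 1 was higher and 2 lower. Over all genes tested the shares in the same order were 13.2% and 14.8%, 20.0%, and 11.9% and 17.2%. The acid- and swelling-sensitive potassium channel Kcnk5 was at 6.48 ± 0.394 CPM in iso-osmolar controls, 13.5 ± 0.939 CPM at 500 mOsm and 6.70 ± 0.538 CPM at 600 mOsm (SD, n = 3). It rose at 500 mOsm (log2 fold change 1.06, adjusted p = 5.62e-06) and was lower at 600 than at 500 mOsm (-1.01, adjusted p = 1.1e-05). The K-Cl cotransporter Slc12a4 was lower at 500 mOsm than in iso-osmolar controls (-0.23, adjusted p = 0.00675). It was higher at 600 than at 500 mOsm (0.16, adjusted p = 0.0412). At 600 mOsm against iso-osmolar controls it was not called (-0.07, adjusted p = 0.375). The calcium-activated channel Kcnn4 fell at both intensities (-0.83, adjusted p = 0.000755, and -0.76, adjusted p = 0.00145), as did the mechanosensitive channel Kcnk2 (-0.63, adjusted p = 0.00294, and -0.75, adjusted p = 0.000946).

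**Figure D4:**
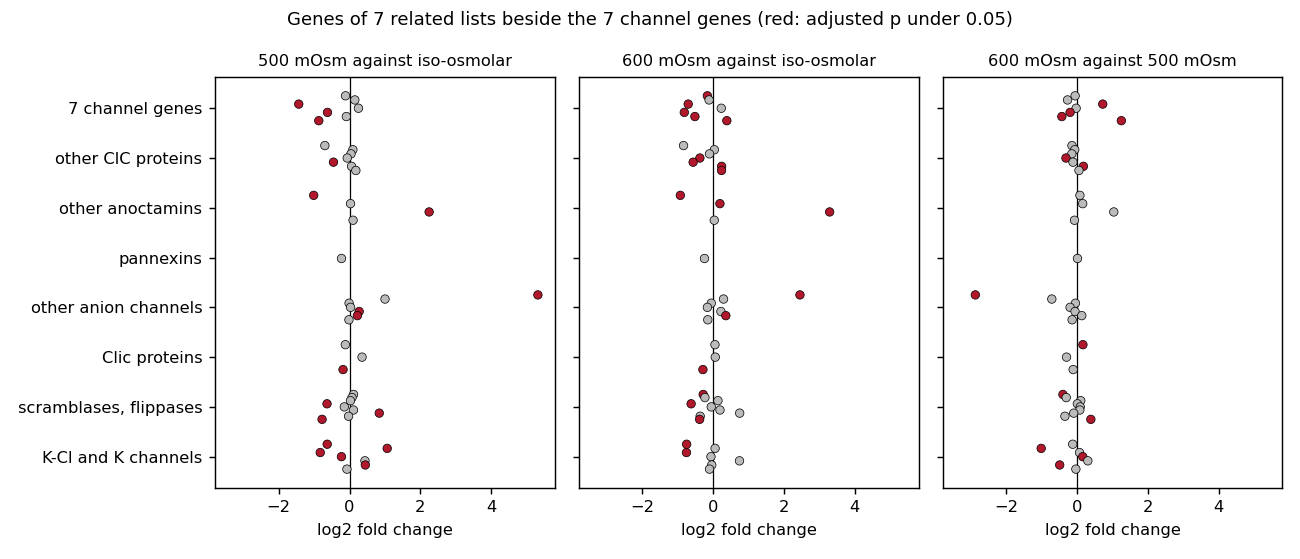
Log2 fold change (x axes) of the tested genes of each list (y axis) beside the 7 channel genes, 1 panel per comparison, each point a gene and red points those with an adjusted p under 0.05. The points far to the right at 500 mOsm are Best2 and Ano7, whose fitted values rest on iso-osmolar libraries with at most 4 counts, and in each panel red points lie on both sides of 0.

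The genes whose pattern over the 9 libraries was most like that of Lrrc8a, Lrrc8e and Lrrc8c, the 3 genes with the largest called changes, were found by the root mean square (RMS) difference of centred log2 CPM, with genes under an average log2 CPM of 1 left out. For Lrrc8a, whose own RMS around its mean was 0.60, they were Fem1c (RMS difference 0.10), Rap2b (0.12) and Ubtd2 (0.12). Rap2b, a small GTPase of the Ras family, had log2 fold changes of -1.499 at 500 mOsm and -0.75 at 600 mOsm against iso-osmolar controls. For Lrrc8e, with its own RMS of 0.54, they were Cdc42ep2 (0.13), the interferon regulatory factor Irf1 (0.14) and Arhgef39 (0.15). Irf1 had log2 fold changes of -0.92 at 500 mOsm, 0.41 at 600 mOsm and 1.33 at 600 against 500 mOsm. For Lrrc8c, with its own RMS of 0.35, they included Slc35d1 (0.05) and the gap junction gene Gjc1 (0.05). Gjc1 had log2 fold changes of -0.60 at 500 mOsm and -0.81 at 600 mOsm. These genes were picked for likeness, so their values describe the patterns and test nothing.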

How the data were processed

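Poly-A RNA of wild type MEFs was sequenced by the authors on an Illumina HiSeq as paired-end reads and aligned to mm10. Per the labels' processing notes, CASAVA 1.8 and STAR were used, while the counting tool and the strandedness are not given in the sources used here. The authors deposited raw read counts for 35275 genes in 9 libraries, FPKM made by the authors from the counts, gene lengths and library totals, and the gene lengths themselves. The table's remaining columns, fold changes with p-values from the study's own comparisons, were left aside. The members and lists were chosen with earlier results of these data known.

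After TMM normalization, counts were tested with the quasi-likelihood method of edgeR 4.0.16 (R 4.3.3), with treatment as the factor, all 9 libraries in one fit and the 13082 genes that passed filterByExpr. The Benjamini-Hochberg adjustment ran over those genes, with a threshold of 0.05. SE was the absolute log2 fold change divided by the square root of F. The common biological coefficient of variation was 0.0756. Tested on simulated counts for 600 against 500 mOsm, the fit recovered 177 of 200 changed genes among 13082 and made 11 false calls. Replicates differed by more than counting noise (chi-square per degree of freedom 5.15 to 15.4), so none was merged. Shared sequence was searched with blastn 2.17.0 and exon overlap was taken from GENCODE M21.

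Named genes were the 7 channel genes, at most 2 called genes per direction, list and comparison with the smallest p, and 3 genes per pattern with the smallest RMS difference, except that 2 of these genes are not reported here. Alternatives were RLE factors, library size alone, no filter, at least 10 counts in every library, DESeq2 1.42.0, a fit of the 2 groups compared, the replicate block, limma 3.58.1 on log2(FPKM + 1) and log2(FPKM + 0.1), an adjusted p under 0.01, and each library left out. A GC content and length correction (alone and with the block) and the shorter length of Lrrc8a for levels, shares and ratios were added after the data were seen.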

Additional observations from a re-analysis of the deposited data

How the results depend on the processing

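Of the 12 calls among the 7 genes, 8 kept their direction and call in all 21 alternatives run for each: the 3 of Lrrc8a, both of Lrrc8c against iso-osmolar medium, Lrrc8d at 600 mOsm against iso-osmolar medium, and Lrrc8e at 500 mOsm and at 600 against 500 mOsm. With 1 added to FPKM, the log2 fold changes shrank, to -0.94 for Lrrc8a and -0.47 for Lrrc8e at 500 mOsm against iso-osmolar medium, as the added value weighs more at low levels. The call of Lrrc8d between the intensities was lost with the GC and length correction plus the replicate block (-0.21, adjusted p = 0.0648). The number of the 7 genes called was 3 at 500 mOsm against iso-osmolar medium (3 to 3 when each library was left out), 5 at 600 mOsm (3 to 5, at 3 without iso-osmolar replicate 1, 600 mOsm replicate 1 or 600 mOsm replicate 3, and 3 under DESeq2, the replicate block or an adjusted p under 0.01) and 4 between the intensities (3 to 4, and 2 with the GC and length correction plus the replicate block). Of the 36 list calls that the naming rule picked, 19 were kept in every alternative. The lists' count between the intensities, 9, was 5 in a fit of the 2 groups, 4 at an adjusted p under 0.01 and 4 to 8 when each library was left out, with the fewest, 4, without 500 mOsm replicate 1, 5 without 600 mOsm replicate 1 and 5 without 600 mOsm replicate 3. The cause of these changes was not tested.

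Directions reversed for Lrrc8b, Clcn3, Ano6 and Lrrc8c, and of these results only the Lrrc8c step between the intensities had been called. When each library was left out, Lrrc8b at 500 mOsm ranged from -0.11 to 0.83, at 600 mOsm from -0.14 to 0.80 and between the intensities from -0.30 to 0.35. At 500 mOsm it went to -0.11 without iso-osmolar replicate 2 and -0.06 without 500 mOsm replicate 3, at 600 mOsm against iso-osmolar medium to -0.14 without iso-osmolar replicate 2 and -0.05 without 600 mOsm replicate 1, and between the intensities to 0.29 without 500 mOsm replicate 3 and 0.35 without 600 mOsm replicate 3. With the GC and length correction, alone and with the replicate block, the log2 fold changes were 0.0823 and 0.0822 for Clcn3 at 600 mOsm against iso-osmolar medium, and between the intensities 0.16 and 0.14 for Lrrc8b, 0.0165 and 0.0178 for Lrrc8c and 0.141 and 0.141 for Ano6.

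Replicate numbers are shared between treatments, and whether they pair the libraries is not settled here. Deviations from the group means correlated at -0.197 on average for 9 same-numbered pairs (-0.538 to 0.452) and at 0.1 for 18 others. Because deviations cancel out within a group, the second mean follows largely from the first and is no separate baseline. With the replicate block, the calls of Lrrc8e (0.39, adjusted p = 0.0733) and Ano6 (-0.17, adjusted p = 0.0856) at 600 mOsm against iso-osmolar medium and of Lrrc8c between the intensities (-0.20, adjusted p = 0.0673) were lost, and over all genes 3111, 3798 and 3089 were called where 3659, 4594 and 3810 were without it.

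As shares of counts instead of FPKM, Lrrc8a held 11.98%, 6.50% and 11.3% in iso-osmolar medium and at 500 and 600 mOsm, Lrrc8c 57.8%, 54.97% and 50.7%, Lrrc8e 5.52%, 4.42% and 11.1%, Lrrc8d 24.4% and 33.5% in the first 2, and Lrrc8b 0.572% and 0.599% in the last 2. With Lrrc8a per unshared length, the shares were 37.0%, 22.9% and 34.4% for Lrrc8a, 37.1%, 40.3% and 32.0% for Lrrc8c, 19.0%, 29.9% and 20.1% for Lrrc8d, and 6.38% and 12.7% for Lrrc8e in iso-osmolar medium and at 600 mOsm. With 4 to 16 counts per library, depth limits Lrrc8b.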
